A study of Mus musculus with 8 samples.

Results

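Mitochondrial ribosomal protein genes, 76 of the 18193 genes measured, were compared between stem and progenitor cells of Jak2V617F heterozygous and wild type mice. Members were all genes whose symbol begins with Mrpl or Mrps followed by a number and to which at least 1 probe set (the group of probes that reads a transcript on the array) was assigned as the only gene. Each was represented by its probe set with the highest mean over the 8 arrays. Of the members, 47 were Mrpl genes and 29 were Mrps genes. A further 4 probe sets carried a member's name together with that of another gene (Mrpl30 with Gm6238 on 2 of them, Mrps34 with Nme3, Mrpl53 with Ccdc142) and were left out, so that Mrpl30 and Mrpl53 were not analysed here.

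Mitochondria translate a small genome of their own, which encodes core subunits of the respiratory chain and of ATP synthase. The ribosome that does so has a small subunit, which reads the messenger, and a large subunit, which joins the amino acids. Its RNAs come from mitochondrial DNA, but all of its proteins are encoded in the nucleus, made in the cytosol and imported. Some descend from bacterial ribosomal proteins and others have no bacterial counterpart. Haematopoietic stem cells are known for low reliance on respiration, and dependence on it grows as they begin to divide and differentiate.

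The arrays came from LSK cells of C57BL/6 mice, bone marrow cells sorted for low lineage markers, Sca1 and high cKit, which hold stem cells and multipotent progenitors. The mutant group held 4 mice heterozygous for Jak2V617F, a form of the kinase Jak2 that signals without its cytokine and occurs in myeloproliferative neoplasms, and the wild type group held 4 mice. The labels used here give neither the age and sex of the mice nor the promoter that drives the mutant allele. Values are log2 intensities, changes are mutant minus wild type on the log2 scale, and the number of arrays limits their precision.

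Array quality and cell content were checked first. Medians of log2 intensity lay between 7.06 and 7.13 in mutant and between 7.12 and 7.15 in wild type arrays. Jak2 differed by -0.20 ± 0.089 (SE; limma adjusted p = 0.294), with 12.43 ± 0.16 in mutant and 12.63 ± 0.05 in wild type arrays (SD, n = 4 each). The sort marker Kit averaged 12.67 in mutant and 12.65 in wild type arrays. Male expression was read from Y-linked genes in 3 mutant and 2 wild type arrays and female expression, with high Xist, in 1 mutant and 2 wild type arrays. Some other signals moved with genotype. The control probe set for the middle of 18S ribosomal RNA read 12.36 to 13.11 in mutant and 13.15 to 13.71 in wild type arrays (exact permutation p = 0.0286, two-sided, the smallest p for 4 against 4). The 18S controls for the 5′ and 3′ parts had lower means in mutant arrays too, but overlapped. The 5′ one read 7.87 to 9.10 against 8.99 to 9.87 (exact permutation p = 0.0571). The 3′ one read 8.26 to 9.15 against 9.09 to 9.46 (exact permutation p = 0.0857). Erythroid markers, 5 of 7 measured, lay above 0 in 5 of 5 with list means of 8.90 to 10.09 in mutant and 7.72 to 8.61 in wild type arrays. Macrophage markers lay above 0 in 8 of 8, with list means of 8.53 to 9.38 in mutant and 7.86 to 8.72 in wild type arrays. Granulocyte markers lay above 0 in 5 of 6, with list means of 12.84 to 13.53 in mutant and 12.27 to 13.06 in wild type arrays, and stem and multipotent progenitor markers in 2 of 8, with 12.14 to 12.45 in mutant and 12.18 to 12.40 in wild type arrays. Megakaryocyte and platelet markers lay above 0 in 5 of 5, with list means of 9.40 to 10.06 in mutant and 9.26 to 9.68 in wild type arrays. T cell markers lay above 0 in 3 of 4, with 6.66 to 7.08 in mutant and 6.72 to 6.97 in wild type arrays, and endothelial markers in 3 of 4, with 7.70 to 8.04 in mutant and 7.71 to 8.03 in wild type arrays. B cell markers lay above 0 in 2 of 4, with list means of 7.10 to 7.18 in mutant and 7.09 to 7.28 in wild type arrays. No gene of these lists passed limma's adjusted threshold. The part of these signals in the differences below was not tested, and in bulk samples a different share of a cell type and different RNA per cell cannot be told apart.

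Almost all mitochondrial ribosomal protein genes lay slightly above 0, and none passed the test. Of the 76 genes, 71 had a change above 0 and 5 a change below 0, against 62.6% above 0 among all genes. Their median change was 0.10, a 1.07-fold difference, against 0.05 over all genes. The highest was 0.27 and the lowest -0.17. In limma over all genes 0 of 76 members had an adjusted p under 0.05, where 0.165% of all genes (30 of 18193) did, and the smallest adjusted p of a member was 0.204. An unadjusted p under 0.05 was found for 12 members, all higher in mutant cells, against 11.9% of all genes, and for 0 members lower, against 5.23% of all genes.

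**Figure D1:**
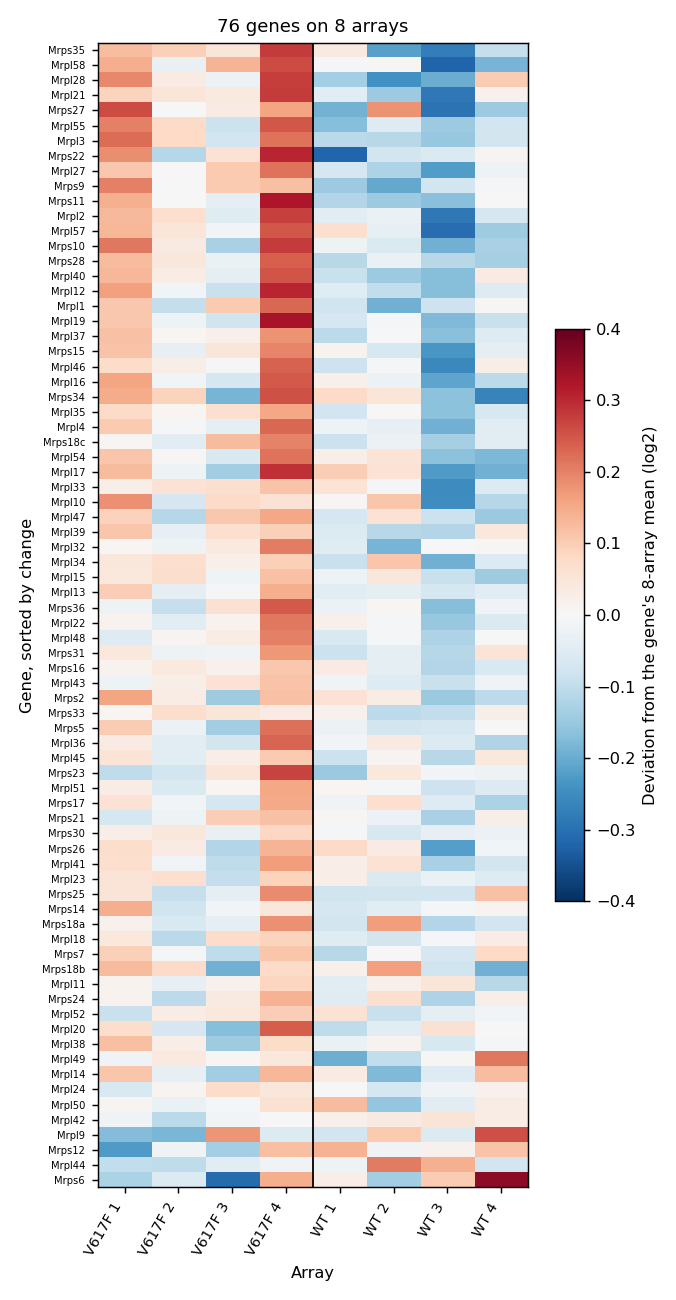
Deviation of each of 76 genes (rows, sorted by change) from its own mean over 8 arrays (columns; V617F, Jak2V617F heterozygous; WT, wild type), in log2 units, red above and blue below. Mutant array 4 is red for 74 genes and wild type array 3 is blue for all but 7, while mutant arrays 2 and 3 are mixed.

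The members are brightly hybridised genes, and the comparison with all genes depends on that. Mean log2 intensity of the members ran between 10.22 and 14.42, whereas the median over all probe sets was 7.11. Genes with dim probe sets lay above 0 more often than bright ones. Among the 3485 genes with means between 5 and 7 the share above 0 was 77.6%, and among the 2056 genes with means between 12 and 13 it was 48.8%. In that last range 31 of 34 members lay above 0, with a median of 0.10. Over all 7383 genes at least as bright as the lowest member, 52.3% lay above 0 and the median change was 0.01. In this set 7.02% had an unadjusted p under 0.05 in the higher direction, against 12 of 76 members (15.8%). That contrast depended on the setting. Without mutant array 2 it stood at 22.4% of members and 6.7% of other genes of that brightness. Without mutant array 3 it stood at 19.7% and 7.8%, and with dim genes left out at 18.4% and 8.0%. Among male arrays alone it stood at 18.4% and 8.9%. In some other settings it was small or reversed. After median centring 5.3% of members and 4.8% of other genes of that brightness had such a p, with probe sets averaged 6.6% and 6.5%, and with sex as a covariate 6.6% and 6.9%. Without mutant array 1 these shares were 2.6% and 5.1%, without mutant array 4 they were 2.6% and 3.9%, and without wild type array 3 they were 2.6% and 3.8%.

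**Figure D2:**
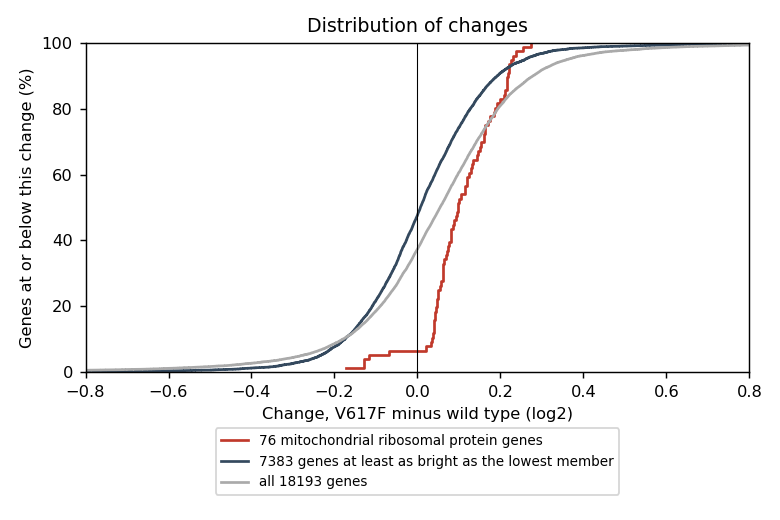
Cumulative share of genes (vertical axis, %) at or below a given change in mutant minus wild type cells (horizontal axis, log2) for 76 mitochondrial ribosomal protein genes, for the 7383 genes at least as bright as the lowest of them, and for all 18193 genes, of which some lie beyond the ends of the horizontal axis. The members' curve crosses 0 at 5 of 76 genes and ends at 0.27, with no long tail on either side.

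The size of the differences was bounded tightly. The limma 95% interval of a member's change had a median half-width of 0.18, and the widest was 0.29. No interval of the 76 reached above 0.48, a 1.39-fold difference, or below -0.46, a ratio of 0.728. Spread between mice was 0.11 in mutant and 0.08 in wild type arrays (median SD over members). The SD was larger in mutant arrays for 50 of 76 members (65.8%), against 46.3% of other genes of that brightness, for which the median SD was 0.10 in mutant and 0.11 in wild type arrays.

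**Figure D3:**
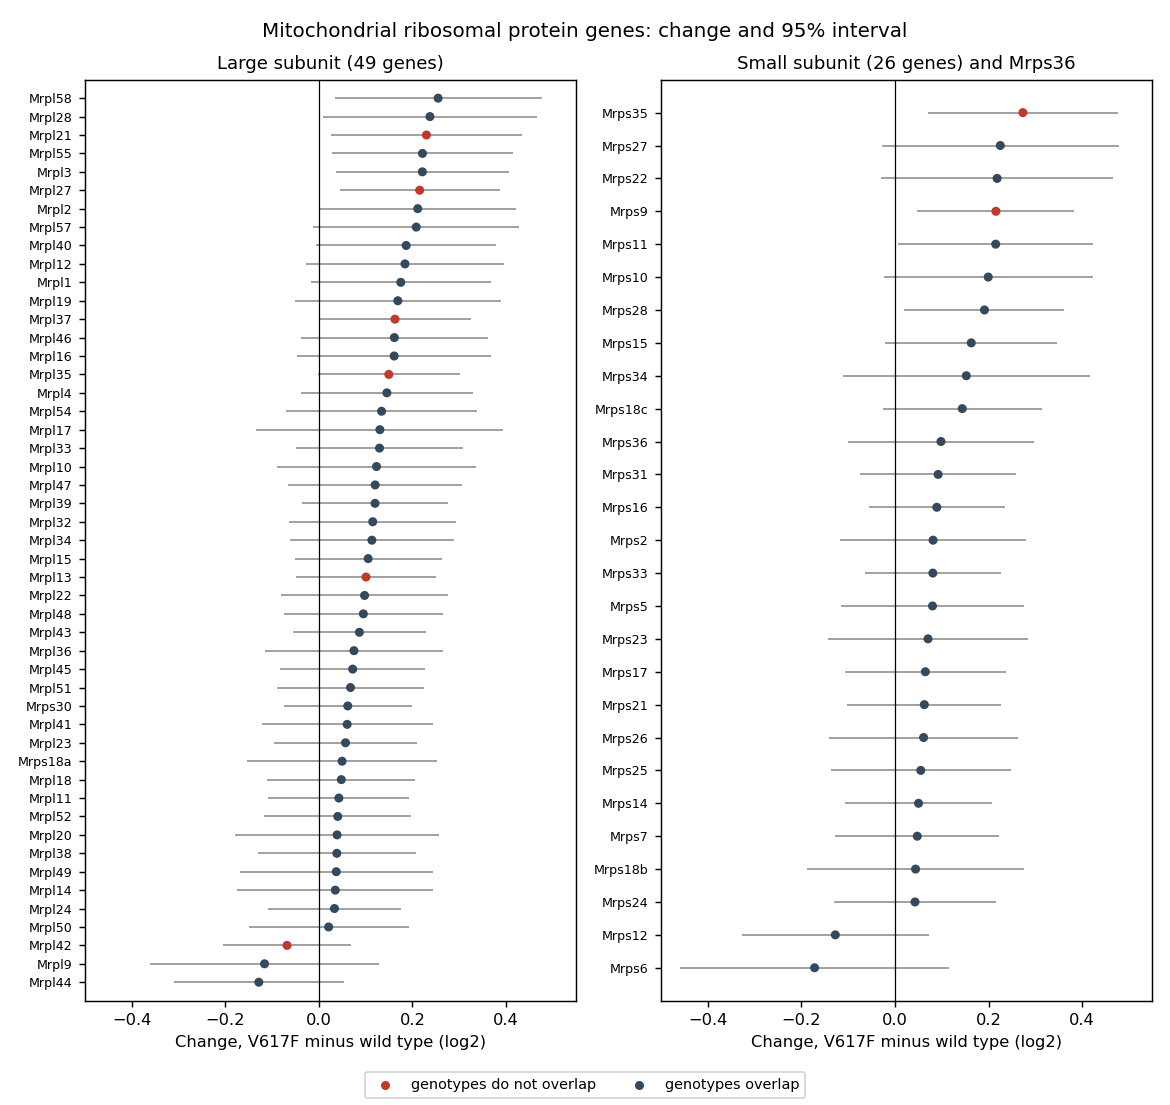
Change in mutant minus wild type cells (log2) with its limma 95% interval for 49 proteins of the large subunit (left) and for 26 of the small subunit with Mrps36 (right). Red points mark the 8 genes whose 4 mutant and 4 wild type arrays do not overlap, and 12 intervals lie wholly above 0.

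The level of the whole group varied among mice of a genotype, most among mutant mice. Averaged over the 76 genes as the deviation from each gene's own mean, the mutant arrays 1 to 4 stood at 0.07, -0.01, -0.02 and 0.17, and the wild type arrays 1 to 4 at -0.04, -0.03, -0.12 and -0.03. All mutant arrays were thus above all wild type arrays, but mutant arrays 2 and 3 exceeded wild type arrays 1, 2 and 4 by little. Mutant array 4 gave the highest of the 8 values for 57 members (75.0%), against 13.7% of other genes of that brightness. Wild type array 3 gave the lowest for 40 members (52.6%), against 20.9% of those other genes. Without mutant array 4 the median change was 0.06 and the number of members with an unadjusted p under 0.05 was 2. Without wild type array 3 these were 0.07 and 2. Without mutant array 1 they were 0.11 and 2. With mutant array 4 and wild type array 3 both left out, 62 members lay above 0 and the median change was 0.05. In that setting 0 members had an unadjusted p under 0.05 in limma, where 2.1% of other genes of that brightness had one in the higher direction. Of those other genes 53.3% lay above 0. The control for Gapdh, read as the 3′ minus the 5′ probe set, was lowest in mutant array 4, at 0.56, against 0.71 to 0.77 in the other mutant arrays and 0.68 to 0.73 in wild type arrays. The same reading for Actb was highest in mutant array 4, by little. It was 0.7289 there, against 0.6274 to 0.7273 in the other mutant arrays and 0.5968 to 0.7165 in wild type arrays. The part of these differences in the level of the members on mutant array 4 was not tested.

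**Figure D4:**
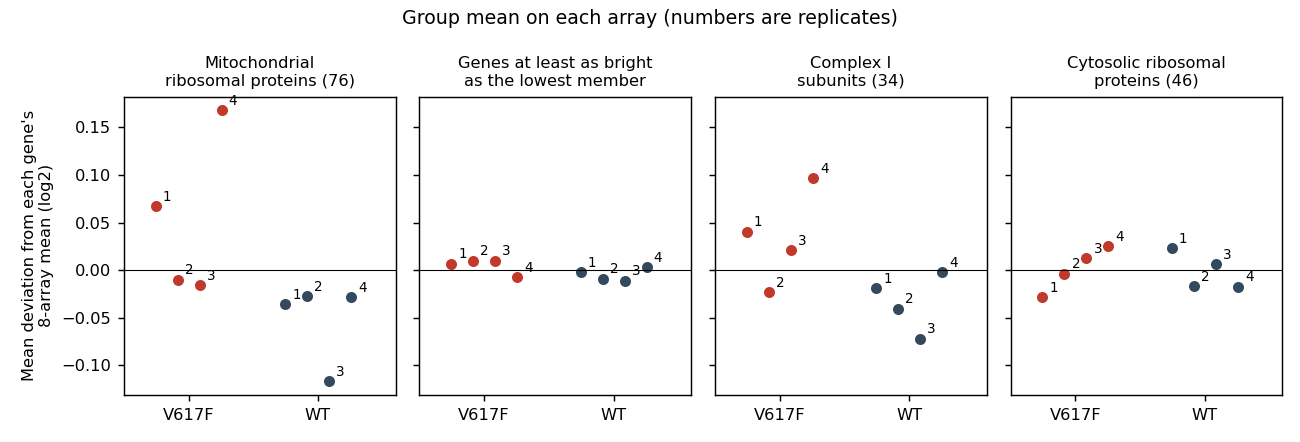
Mean deviation from each gene's own 8-array mean (log2) on each array, mutant left and wild type right in each panel, points numbered by replicate, for the 76 members, for the 7383 genes at least as bright as the lowest member, for 34 complex I subunit genes and for 46 cytosolic ribosomal protein genes. Members are highest on mutant array 4 (0.17) and lowest on wild type array 3 (-0.12).

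Male and female arrays were unevenly divided between genotypes. With sex as a covariate 68 of 76 members lay above 0 and the median was 0.10. Among male arrays alone, 3 mutant and 2 wild type, these were 68 and 0.15.

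Large subunit proteins lay above 0 in 46 of 49 genes, with a median of 0.11. This set includes Mrps18a and Mrps30, which are named for the small subunit but sit in the large one. Within the large subunit, proteins of bacterial descent lay above 0 in 28 of 29 genes with a median of 0.12, and those particular to mitochondria in 18 of 20 with a median of 0.08. The difference between these sets was not tested. Small subunit proteins lay above 0 in 24 of 26 genes, with a median of 0.08. Those counted as of bacterial descent lay above 0 in 14 of 16 and those counted as particular to mitochondria in 10 of 10. Despite the shared name, Mrps18b was counted as particular to mitochondria and Mrps18a and Mrps18c as of bacterial descent. Mrps36, which despite its name is known as a part of the oxoglutarate dehydrogenase complex, differed by 0.10 ± 0.088 (SE; limma adjusted p = 0.572).

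Non-overlapping genotypes were found for 7 members in the higher direction, Mrps35, Mrpl21, Mrpl27, Mrps9, Mrpl37, Mrpl35 and Mrpl13, against 6.82% of all genes and 4.86% of genes at least as bright as the lowest member. For 1 member, Mrpl42, all mutant arrays lay below all wild type arrays, against 3.33% of all genes. A share of 7 in 76 (9.21%) is near that of genes at large.

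Mrps35, a small subunit protein particular to mitochondria, had the largest change and the smallest p of the group. It read 12.63, 12.60, 12.56 and 12.79 in mutant arrays, against 12.55, 12.29, 12.24 and 12.42 in wild type arrays. The lowest mutant array stood barely above the highest wild type array. The change was 0.27 ± 0.090 (SE), or 1.21-fold (limma adjusted p = 0.204), and it was 0.18 with mutant array 4 and wild type array 3 left out. No other probe set was assigned to it.

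Mrps9, the small subunit counterpart of the bacterial protein whose tail reaches the transfer RNA site, read 12.56, 12.36, 12.46 and 12.48 in mutant arrays, against 12.21, 12.15, 12.28 and 12.36 in wild type arrays. The change was 0.22 ± 0.074 (SE; limma adjusted p = 0.218). Its other probe sets were mixed. The first, also without overlap, differed by 0.22, and the others by 0.04 and -0.17. In Mrps11, a protein of the small subunit platform, arrays read 11.74, 11.60, 11.57 and 11.93 in mutant and 11.48, 11.45, 11.44 and 11.60 in wild type cells. Its groups overlapped, with wild type array 4 above mutant array 3. The change was 0.22 ± 0.092 (SE; limma adjusted p = 0.281), and a dimmer probe set of Mrps11 differed by -0.23. Mrps28, which is related to part of the bacterial S1 protein, differed by 0.19, Mrps27, a protein with pentatricopeptide repeats, by 0.22, and Mrps22 by 0.22, each with overlapping groups and limma adjusted p of 0.254, 0.337 and 0.339.

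In the large subunit, Mrpl58 stood highest. It is the peptidyl-tRNA hydrolase also called Ict1, which frees stalled ribosomes and is built into the subunit. Arrays read 12.68, 12.51, 12.67 and 12.80 in mutant, against 12.53, 12.54, 12.22 and 12.35 in wild type cells. Mutant array 2 lay below wild type arrays 1 and 2. The change was 0.26 ± 0.098 (SE; limma adjusted p = 0.244), and its other probe set, at 4.36 near the bottom of the range, differed by -0.03.

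Mrpl27, whose bacterial counterpart lies by the site where peptide bonds form, read 12.52, 12.42, 12.52 and 12.63 in mutant arrays, against 12.35, 12.29, 12.19 and 12.39 in wild type arrays. The groups came close but did not overlap, with a change of 0.22 ± 0.076 (SE; limma adjusted p = 0.222). Its other probe set, dim at 5.99, differed by -0.15. Mrpl21 read 12.47, 12.43, 12.42 and 12.66 in mutant arrays, against 12.34, 12.24, 12.10 and 12.40 in wild type arrays. Its change of 0.23 ± 0.090 (SE) had a limma adjusted p of 0.250, and its other probe sets differed by 0.21 and -0.09.

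Mrpl3, a core protein of the large subunit, varied more among mutant arrays. They read 12.69, 12.54, 12.39 and 12.68, whereas wild type arrays read 12.36, 12.35, 12.31 and 12.39. The SD was 0.14 in mutant and 0.03 in wild type arrays, and the change was 0.22 ± 0.082 (SE; limma adjusted p = 0.231). A further probe set of Mrpl3 differed by 0.23, and dimmer ones by 0.04 and -0.43. Mrpl28, Mrpl55 and Mrpl2 differed by 0.24, 0.22 and 0.21, with overlapping groups and limma adjusted p of 0.278, 0.248 and 0.290. Of these, Mrpl2 is a core protein near the site of peptide bond formation. Other probe sets of Mrpl28 differed by 0.04, at a mean of 11.10, and by 0.08, at a dim 4.81. Mrpl37, particular to mitochondria, read 11.01, 10.90, 10.92 and 11.07 in mutant arrays, against 10.79, 10.89, 10.73 and 10.84 in wild type arrays. Wild type array 2 and mutant array 2 differed by little, and the change was 0.16 ± 0.071 (SE; limma adjusted p = 0.289).

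**Figure D5:**
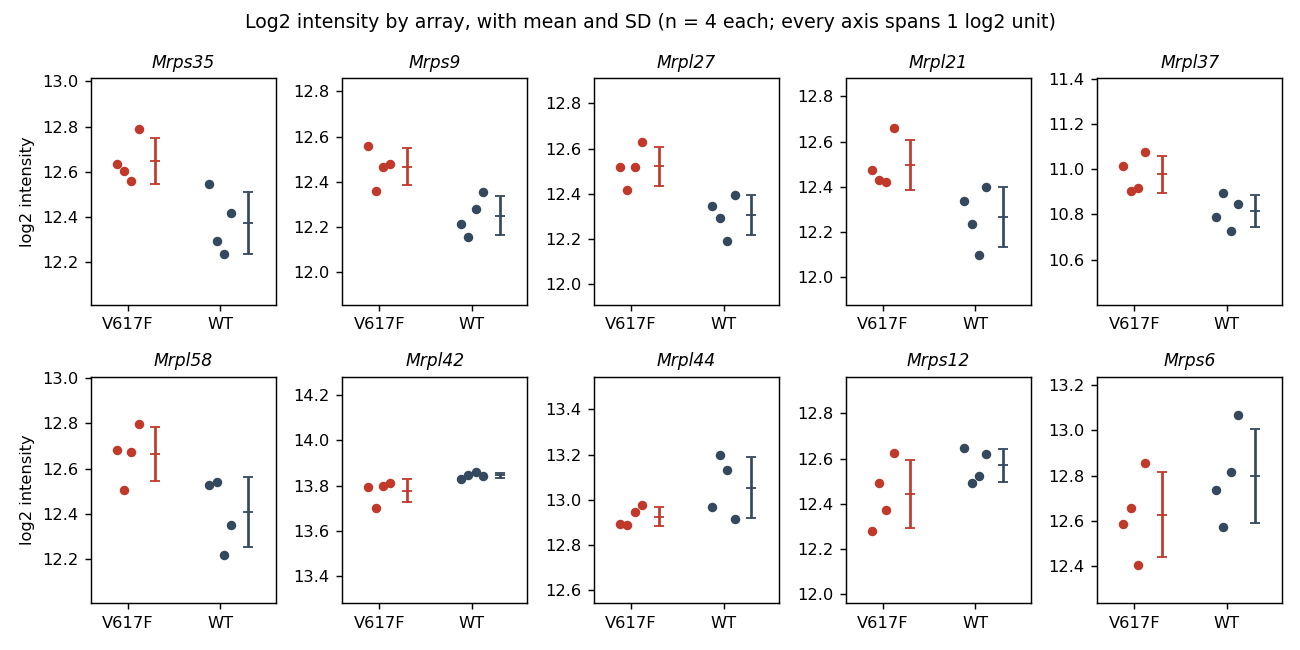
Log2 intensity (vertical axis, each spanning 1 log2 unit) of 10 mitochondrial ribosomal protein genes on each array, mutant (V617F) left and wild type (WT) right, with mean and SD beside the points (n = 4 each). Mrps35, Mrps9, Mrpl27, Mrpl21 and Mrpl37 lie without overlap above wild type and Mrpl42 below it, and the other 4 overlap.

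The 5 members below 0 were Mrps6, Mrpl44, Mrps12, Mrpl9 and Mrpl42. Mrps6 stood lowest, at 12.59, 12.66, 12.40 and 12.86 in mutant arrays, against 12.74, 12.57, 12.81 and 13.07 in wild type arrays. These overlapped broadly, with a change of -0.17 ± 0.13 (SE; limma adjusted p = 0.492), and the other probe set of Mrps6 differed by -0.16. Its place as the lowest rested on single arrays. Without wild type array 4 Mrps6 differed by -0.08 and Mrpl44 by -0.17. Without mutant array 3 Mrps6 differed by -0.10, Mrpl44 by -0.13 and Mrpl9 by -0.19. Mrpl44, which has the fold of a ribonuclease III, differed by -0.13 ± 0.080 (SE; limma adjusted p = 0.426), with 3 further probe sets at -0.01, 0.02 and -0.12. Mrps12, whose bacterial counterpart takes part in decoding, differed by -0.13 ± 0.089 (SE; limma adjusted p = 0.468), and Mrpl9 by -0.12 ± 0.11 (SE; limma adjusted p = 0.588) with other probe sets at -0.16 and -0.22. Mrpl42, particular to mitochondria, had the smallest difference of these 5 and no overlap. It read 13.80, 13.70, 13.80 and 13.81 in mutant, against 13.83, 13.85, 13.86 and 13.84 in wild type cells, a change of -0.07 ± 0.060 (SE; limma adjusted p = 0.567). Closest to 0 on the other side were Mrpl50 (0.02), Mrpl24 (0.03) and Mrpl14 (0.04), whose limma adjusted p ran between 0.800 and 0.903.

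Other probe sets of the members were more divided in direction than the chosen ones. Of 80 such probe sets 46 lay above 0, where 57.8% of all probe sets with 1 gene did. Of the 62 whose mean exceeded 7.11 there were 39 above 0, with a median of 0.04, and 43 had the sign of the chosen probe set. Of all 80, 3 higher and 4 lower ones had an unadjusted p under 0.05 in limma fitted to all probe sets. In the separate fit with 1 probe set per gene, 11.9% and 5.23% of all genes did. The 4 lower probe sets were of Mrpl13, with means of 4.63 in mutant and 5.21 in wild type arrays, of Mrpl51 with 7.02 and 7.41, of Mrps15 with 7.22 and 7.43, and of Mrpl15 with 8.80 and 9.15. Each differed in direction from the brighter probe set chosen for its gene, and which transcript they read is not given in the sources used here. With the probe sets of each gene averaged, 65 of 76 members lay above 0, against 62.7% of all genes, and the median was 0.07.

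Other genes that serve the same ribosome were taken from lists, each to be read beside the 62.6% of all genes that lay above 0. Proteins of the mitochondrial ribosome that also go by other names, of which 6 of 7 were measured, lay above 0 in 6 of 6. Since 2 of these, Mrpl57 and Mrpl58, are members, 4 genes stand outside the naming rule. Among those was Gadd45gip1, a large subunit protein, which read 10.71, 10.60, 10.98 and 10.99 in mutant arrays, against 10.49, 10.47, 10.20 and 10.45 in wild type arrays. It did not overlap, and its change of 0.42 ± 0.11 (SE; limma adjusted p = 0.150) exceeded that of every member. Dap3 differed by 0.06 and Ptcd3 by 0.09.

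Assembly factors and enzymes that modify mitochondrial ribosomal RNA lay above 0 in 22 of 27 genes, with a median of 0.11. Trub2, a pseudouridine synthase, differed by 0.39 ± 0.11 (SE; limma adjusted p = 0.178) and Rbfa, a factor of small subunit maturation, by 0.36 ± 0.098 (SE; limma adjusted p = 0.157), both without overlap. The methyltransferase gene Mrm2 and Mterf4 stood lowest, at -0.14 each.

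Translation factors of mitochondria lay above 0 in 13 of 16 measured genes of 18, with a median of 0.14. The elongation factor genes Gfm1 and Tsfm differed by 0.32 and 0.24 (limma adjusted p = 0.225 and 0.254), and Mtrf1l, a release factor, and Gatc by -0.12 and -0.07. Aminoacyl-tRNA synthetases of mitochondria, which load transfer RNAs, lay above 0 in 16 of 16 measured genes of 17, with a median of 0.16. Iars2 and Tars2, for isoleucine and threonine, differed by 0.31 and 0.28 (limma adjusted p = 0.192 and 0.240), whereas Hars2 differed by 0.05 and Cars2 by 0.0002. For these synthetases wild type array 3 stood at -0.22 and the other 7 arrays between -0.06 and 0.15 (mean deviation). No gene of these lists passed limma's adjusted threshold.

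Genes upstream of translation were more divided. Mitochondrial transcription and DNA maintenance genes lay above 0 in 10 of 14, with a median of 0.05, the median over all genes. The lowest mean intensity among these genes was 10.79. Over genes at least as bright as the lowest member the median was 0.01, with 52.3% above 0. Elac2, which trims transfer RNA ends, differed by 0.30 and Top1mt, a topoisomerase, by 0.22, while Tfam, which packages mitochondrial DNA, differed by -0.06 and Mterf1a by -0.08. Of 12 regulators of nuclear genes for mitochondria 4 lay above 0, with a median of -0.04. Esrra, a nuclear receptor, averaged 8.36 ± 0.18 in mutant and 7.98 ± 0.08 in wild type arrays (SD, n = 4 each), without overlap (0.38, limma adjusted p = 0.137). The coactivator gene Ppargc1b differed by -0.25 and Gabpa, a subunit of an ETS factor, by -0.13, and Ppargc1a by 0.12, and again 0 of these genes passed the adjusted threshold. The transcript of ND5, a complex I subunit gene of mitochondrial DNA that this ribosome translates, read 13.49, 13.56, 13.51 and 13.45 in mutant arrays, against 13.67, 13.57, 13.62 and 13.57 in wild type arrays. All mutant arrays lay below all wild type arrays, with a change of -0.11 ± 0.063 (SE; limma adjusted p = 0.389).

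Cytosolic ribosomal protein genes and complex I genes were set beside the members. Of 46 cytosolic ribosomal protein genes 19 lay above 0, with a median of -0.01, and of 34 complex I subunit genes 29 did, with a median of 0.05. None of either set passed limma's adjusted threshold, the smallest adjusted p being 0.348 for cytosolic ribosomal protein genes and 0.215 for complex I genes. No test of the difference between these sets and the members was made. On mutant array 4 complex I genes stood at 0.10 and cytosolic ribosomal protein genes at 0.03, and on wild type array 3 they stood at -0.07 and 0.01 (mean deviation).

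Position and promoter sequence are properties that the choice of members did not use. The members lie on 17 chromosomes. Promoter windows of 250 bases before to 50 after the start site were given by RefSeq (GRCm38.p6) for 67 of the 76 members. These were searched on both strands for CCGGAAGT, a site of ETS factors such as Gabpa, for GCGCA followed by any base and GCGC, a site of the factor Nrf1, and for AAGATGGCG, a site of Yy1 (overlaps between motifs were not removed, and 2 members held at least 2 of the 3). The ETS letters were found in 12 of 67 members (17.9%), against 6.6% of 14452 measured genes and 4.3% of all 27025 genes with a window. The Nrf1 letters were found in 12 (17.9%), against 8.6% of measured and 5.2% of all genes, and the Yy1 letters in 8 (11.9%), against 2.5% and 1.6%. By contrast CACGTG, the E-box that Myc and Max bind, was found in 5 (7.5%), against 10.2% and 8.1%, and TATAAA in 5 (7.5%), against 11.5% and 15.7%. These shares describe the windows and test nothing. The median change was 0.11 in members with the ETS letters and 0.08 in those without, 0.09 and 0.09 for Nrf1, and 0.11 and 0.09 for Yy1.

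Windows of 5 members whose genotypes did not overlap are printed to show these letters in place, in capitals, 5′ to 3′ on the strand of the gene. Mrpl27 (chr11:94653641-94653800, plus strand) and Mrps9 (chr1:42851083-42851242, plus strand) are shown over 160 bases that end 10 bases into the transcript, with the ETS letters from -55 to -48 and the Nrf1 letters from -5 to 5, counted from the first transcribed base as 1. The Nrf1 match in Mrps9 is on the opposite strand, so that the letters shown are its reverse complement.
Mrpl27: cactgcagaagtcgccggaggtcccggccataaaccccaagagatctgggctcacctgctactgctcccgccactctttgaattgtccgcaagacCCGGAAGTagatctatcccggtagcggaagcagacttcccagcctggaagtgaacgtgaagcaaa
Mrps9: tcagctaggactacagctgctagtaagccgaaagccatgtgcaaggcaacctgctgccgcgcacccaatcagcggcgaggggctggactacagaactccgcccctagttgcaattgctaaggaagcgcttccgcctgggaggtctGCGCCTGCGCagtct

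The Yy1 letters lay just inside the transcript, in the sense direction, in each of Mrpl37 (chr4:107066822-107066851), Mrpl35 (chr6:71823743-71823772) and Mrpl42 (chr10:95501904-95501933), all on the minus strand. They began at base 27, 24 and 28 of the transcript and are shown in 30 bases.
Mrpl37: ctgcacgggcaAAGATGGCGgcgtccaggt
Mrpl35: aggcaggctgcAAGATGGCGgcttccatct
Mrpl42: cagattgaagcAAGATGGCGagcgcgcggt
Mrpl37 and Mrpl35 lay above wild type without overlap and Mrpl42 below it, but these were picked because their genotypes did not overlap. The other members with the Yy1 letters, Mrpl36, Mrps11, Mrps18a, Mrps24 and Mrps27, all lay above 0. They differed by 0.08, 0.22, 0.05, 0.04 and 0.22. Whether the letters bear on the changes was not tested.

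Neighbours that start nearby and face away were looked for among the 67 members with a promoter window. For 25 of them (37.3%) a measured gene started on the opposite strand within 1000 bases upstream, against 11.6% of 14452 measured genes. The distances ran between 8 and 935 bases, and whether the genes of a pair share a promoter was not tested. The count takes the pair of Mrps11 and Mrpl46 from both sides. Of these 25 neighbours 23 lay above 0, all but Zfp189 and Gga3, with a median of 0.08. Over all genes 62.6% lay above 0. The 3 neighbours with p under 0.05 in limma before adjustment were Ighmbp2, Mrps11 and Hira, each higher in mutant cells. Among all genes 11.9% had such a p in that direction and 5.23% in the other. After adjustment 0 neighbours passed the threshold. The 23 include Mrps11 and Mrpl46, so these counts are not separate from those of the members. Mrps11 and Mrpl46, which are both members, start 42 bases apart. They differed by 0.22 and 0.16. Ighmbp2, a helicase gene that starts 32 bases from Mrpl21, read without overlap and differed by 0.23 (limma adjusted p = 0.232), as did Mrpl21. Hira, which encodes a histone chaperone and starts 113 bases from Mrpl40, differed by 0.31 (limma adjusted p = 0.290), and Mrpl40 by 0.19. Sars2, the mitochondrial seryl-tRNA synthetase gene, starts 147 bases from Mrps12 and stood on the other side of 0, at 0.16 against -0.13 for Mrps12. The helicase gene Twnk, 116 bases from Mrpl43, differed by 0.07 and Mrpl43 by 0.09.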

How the data were processed

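Expression was measured on Affymetrix arrays after RNeasy extraction and NuGEN Ovation amplification, per the labels. The authors deposited log2 intensities, 1 column per mouse, for which the submitters' processing notes name RMA, affy and R 2.11.0. RMA corrects background, normalises by quantiles and summarises probes; that the scale is log2 follows from the range of the values. The chip definition was not given in the sources used here. Scanner files and scan dates were not used here. Quantile normalisation would hide a shift shared by most genes.

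Of 45101 probe sets, 64 controls were left out, 34945 had 1 gene symbol, 932 several and 9160 none, giving 18193 genes. Limma 3.58.1 in R 4.3.3 tested all genes without covariates, with p adjusted by Benjamini-Hochberg across all of them (threshold 0.05), and was checked on simulated data. The titles name a mouse of a genotype and a replicate number for each array. They were read here as separate mice, which the titles do not state. Members, lists and tests were chosen with earlier results of these data known. Named members were the 8 highest and 8 lowest changes and 6 further ones by p, and of each list the 2 highest and 2 lowest. Other genes, ND5 and neighbours among them, were picked with their values known. Other settings tried were median centring, a replicate block, leaving out dim genes or probe sets that read several transcripts (names ending in _s_at, _x_at or _a_at), array weights, averaging or testing all probe sets, a robust prior with trend, sex as a covariate, male arrays alone, other thresholds and each array left out. Leaving out mutant array 4 with wild type array 3, and the comparison with genes of like brightness, were added after seeing the data. Same-numbered arrays did not deviate together (correlations between -0.22 and 0.10), and the main test did not pair them. Those correlations cannot exclude a pairing of the mice, and the labels used here give none.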

Additional observations from a re-analysis of the deposited data

Results flagged for a closer look

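Among the values given above, 92 sets of 4 arrays were searched for an array far from the other 3 by Dixon's criterion at the 95% level, and 6 were found, where chance flags about 1 in 20. The mean over all 76 members was -0.12 in wild type array 3, against -0.04 to -0.03 in the other wild type arrays. Mrpl2 read 12.44 there, against 12.66 to 12.70, and Gadd45gip1 10.20, against 10.45 to 10.49. Mrpl42 read 13.70 in mutant array 2, against 13.80 to 13.81 in the other mutant arrays. In wild type array 4, Dap3 read 13.40, against 13.22 to 13.25, and Mrm2 9.76, against 9.41 to 9.43.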

How the results depend on the processing

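Limma called 0 members under each of the 19 alternatives, and 0 at an adjusted p under 0.1, except that 1 of 156 probe sets, the dim one of Mrpl13, passed 0.1 when all probe sets were tested. The count at an unadjusted p under 0.05 was 12. The median change lay between 0.06 and 0.12 when 1 array was left out, and members above 0 between 67 and 71. It was 0.08 after median centring, 0.12 without shared probe sets (those that read several transcripts by their name endings, _s_at, _x_at or _a_at; 53 of 62 above 0) and 0.07 over all probe sets (117 of 156 above 0). With the replicate number as a replicate block, 0 members were called, 71 lay above 0, the median was 0.10 and 11 had an unadjusted p under 0.05. That last count was 5 for averaged probe sets, 4 for median centring, 6 with sex as a covariate, 7 without shared probe sets and 21 with a trended robust prior. It was between 2 and 17 with 1 array left out (2 without mutant array 1, mutant array 4 or wild type array 3, and 7 without wild type array 1). The shares of members and of other genes of like brightness in these settings are given above. Of 414 values of the 22 named members 404 kept their direction. Mrpl58 was -0.0294 without shared probe sets, where only its dim probe set remained, and Mrpl42 was 0.0447 and Mrps11 -0.0062 with probe sets averaged. With 1 array left out Mrpl50 lay between -0.0267 (without wild type array 2) and 0.0671, and it was -0.0071 with mutant array 4 and wild type array 3 left out. Mrpl24 was -0.0036 in male arrays. Mrpl14 was -0.0025 with sex as a covariate and -0.0144 with both arrays left out, and with 1 array left out it lay between -0.0173 (without wild type array 2) and 0.0876, with -0.0035 without mutant array 4. Other causes of these turns were not tested.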
